A study of Mus musculus with 4 samples.

Results

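The *Serpinb* genes encode the clade B serpins, protease inhibitors that, unlike most other serpins, lack a classical signal peptide and act mainly inside cells. An inhibitory serpin offers a reactive loop as bait, and the protease that cuts it is trapped on the inhibitor in a covalent complex. Members of the clade are known from stratified epithelia and from myeloid and cytotoxic lymphoid cells, where they are held to protect the cell against its own or its neighbours' proteases. The family was taken as every gene name on the array that starts with *Serpinb* and a digit, which gave 27 of 29924 gene names, measured by 31 probes. In the mouse these genes lie in 2 clusters, 12 on chromosome 1 and 15 on chromosome 13.

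The arrays compared cultured mouse ureters without and with epithelial *Pparg*, the gene of a ligand-activated nuclear receptor. *Pparg-cKO* ureters were *Pax2-cre/+; Pparg (fl/fl)*, in which the *Pax2-cre* transgene deletes exons 2 and 3 of *Pparg* in the ureteric epithelium, and controls were cre-negative littermates labelled *Pparg (fl/?)*, all on the NMRI outbred background. Ureters were explanted at P0 and kept for 8 days in DMSO or in 2 µM purmorphamine, an agonist of SHH signalling, and RNA was pooled by sex. Each of the 4 arrays carried the DMSO pool and the purmorphamine pool of 1 genotype and 1 sex (replicate 1 male, replicate 2 female), with dyes exchanged between the sexes, so that every group had 2 pools. Sex and dye orientation cannot be told apart, the number of ureters in a pool is not given in the sources used here, and p-values measure only the spread between these pools. All 4 arrays came from 1 slide scanned once. Between 66.3% and 70.5% of 157716 spots per channel were well above background, and none was saturated. Values below are background-corrected, normalized log2 intensities, in which a difference of 1 is a doubling, and in bulk tissue fewer cells of a type and less RNA per cell cannot be told apart.

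The only *Pparg* probe, at chr6:115440213-115440272 (mm9), read 14.79 and 15.32 in the male and female control pools with DMSO, 15.10 and 15.19 with purmorphamine, 15.55 and 15.58 in the *Pparg-cKO* pools with DMSO, and 15.95 and 16.11 with purmorphamine. These levels were not lower in *Pparg-cKO* pools. The study describes an mRNA without the deleted exons in the mutant, and the genotype label could not be checked with this probe. *Shh*, the ligand of the pathway, was lower in *Pparg-cKO* pools, by a log2 difference of -2.93 with DMSO (adjusted p = 0.00266) and -2.12 with purmorphamine (adjusted p = 0.0114). The pathway targets bear on the treatment label. *Ptch1*, the SHH receptor, rose with purmorphamine by 1.62 in *Pparg-cKO* (adjusted p = 0.0143) and by 1.00 in control ureters (adjusted p = 0.0462), and *Hhip*, which encodes an SHH-binding antagonist, rose by 2.19 in *Pparg-cKO* (adjusted p = 0.0174). *Hhip* in control ureters was 1.33 higher (adjusted p = 0.0679), and the transcription factor gene *Gli1* was 1.34 and 1.06 higher in *Pparg-cKO* and control ureters (adjusted p = 0.0559 and 0.124), short of the threshold of 0.05.

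The female *Pparg-cKO* pool with DMSO stood apart. Of 20231 tested genes, 63 were more than 4-fold higher there than in the male pool of the same group and 7 were more than 4-fold lower. For *Pparg-cKO* with purmorphamine 47 were higher in the female and 4 in the male pool, and in control ureters 1 in the female and 21 in the male pool with DMSO and 1 and 15 with purmorphamine. In the female *Pparg-cKO* pool with DMSO, 46 genes (0.227%) were more than 4-fold above each of the other 7 pools. Of 28 squamous epithelium genes (24 tested), 12 were also more than 4-fold above every other pool, a count that includes genes measured mainly through this pool and is not to be set against that share. Among them were *Lor*, which encodes loricrin of the cornified envelope, at 15.69 against at most 10.59 in any other pool, and *Sprr1b*, a small proline-rich envelope protein gene, at 15.11 against at most 8.75. Of 7 neutrophil markers (6 tested), with the same limit, *S100a8*, *S100a9* and *Ngp* were so too, while *Mpo*, *Elane* and *Csf3r*, which mark the same lineage, were at 8.44, 9.27 and 14.02 in this pool and within 8.01 to 8.67, 8.99 to 9.84 and 13.69 to 14.51 in the other 7. The larger *Serpinb* differences that rest on this pool are also given without its array or by male and female pair.

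Of the 27 *Serpinb* genes, 15 were well above background in all 8 channels, 4 in some and 8 in none. *Serpinb10* was well above background in 5 channels, and *Serpinb3a*, *Serpinb3b* and *Serpinb7* in 1, that of the female *Pparg-cKO* pool with DMSO. The 8 genes at background throughout were *Serpinb3d* and *Serpinb13* on chromosome 1 and *Serpinb9b*, *Serpinb9c*, *Serpinb9d*, *Serpinb9e*, *Serpinb9f* and *Serpinb9g* on chromosome 13, whose log2 intensities lay between 5.89 and 6.24. By pool, 15 or 16 *Serpinb* genes were well above background in each of 7 pools and 19 in the female *Pparg-cKO* pool with DMSO. A probe was tested if at least 1 of the 4 groups had it well above background in each of its pools, which took in 16 *Serpinb* genes, 7 of chromosome 1 and 9 of chromosome 13.

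Several members are close paralogs, and some probes differ by few bases. Of 461 pairs of probes for different members, 7 matched at 35 or more of 60 bases without gaps, and the rest at 30 or fewer. The pairs below are printed because the reading of one member may hold signal of the other; each shows 30 aligned bases of the probes, with capitals at the bases that differ. The *Serpinb6a* probe matched the *Serpinb6c* probe whose values are given at 39 of 42 aligned bases and the second *Serpinb6c* probe at 55 of 59, with the same 30 bases shown. The probes of *Serpinb9f* and *Serpinb9g* matched at 52 of 59, and those of *Serpinb3a* and *Serpinb3c* at 43 of 48. The *Serpinb6e* probe matched those of *Serpinb6c* at 46 of 56 and 41 of 47 and that of *Serpinb6a* at 43 of 55, so that its reading may hold signal of these too.
Serpinb6a probe: aagtgaccttatccataagtgcaatgGcaA
Serpinb6c probe: aagtgaccttatccataagtgcaatgAcaG
Serpinb9f probe: cagTgagtcctctaacaaatggccatttct
Serpinb9g probe: cagAgagtcctctaacaaatggccatttct
Serpinb3a probe: ttcttctaatctagcatAtatctgtgccct
Serpinb3c probe: ttcttctaatctagcatGtatctgtgccct
The members that the tests called (*Serpinb2*, *Serpinb5*, *Serpinb10* and *Serpinb11*) had no such partner.

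With DMSO, the loss of epithelial *Pparg* came with higher *Serpinb11* and *Serpinb10*, and no *Serpinb* gene was called lower. *Serpinb11*, an epithelial member of the clade, read 7.60 (male) and 6.96 (female) in control pools and 11.72 and 11.74 in *Pparg-cKO* pools, that is 7.28 ± 0.45 against 11.73 ± 0.02 (SD, n = 2). The groups were far apart in both sexes. The log2 difference was 4.45 ± 0.31 (SE), or 21.8-fold (adjusted p = 0.00176). Its probe lies at chr1:109276756-109276815 (mm9). *Serpinb10*, which encodes bomapin, a serpin known from bone marrow and myeloid cells, read 6.87 and 6.30 in control pools, the second not well above background, and 9.27 and 9.63 in *Pparg-cKO* pools. The log2 difference was 2.86 ± 0.24 (SE), or 7.28-fold (adjusted p = 0.00327), with its probe at chr1:109443390-109443449 (mm9). So 2 of 16 tested *Serpinb* genes rose (12.5%) and 0 fell, while 1.92% of all 20231 tested genes rose and 1.79% fell (3.72% called in either direction). Without the female control pools both genes missed the threshold, with log2 differences of 2.58 for *Serpinb10* (adjusted p = 0.0617) and 4.13 for *Serpinb11* (adjusted p = 0.0530).

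**Figure D1:**
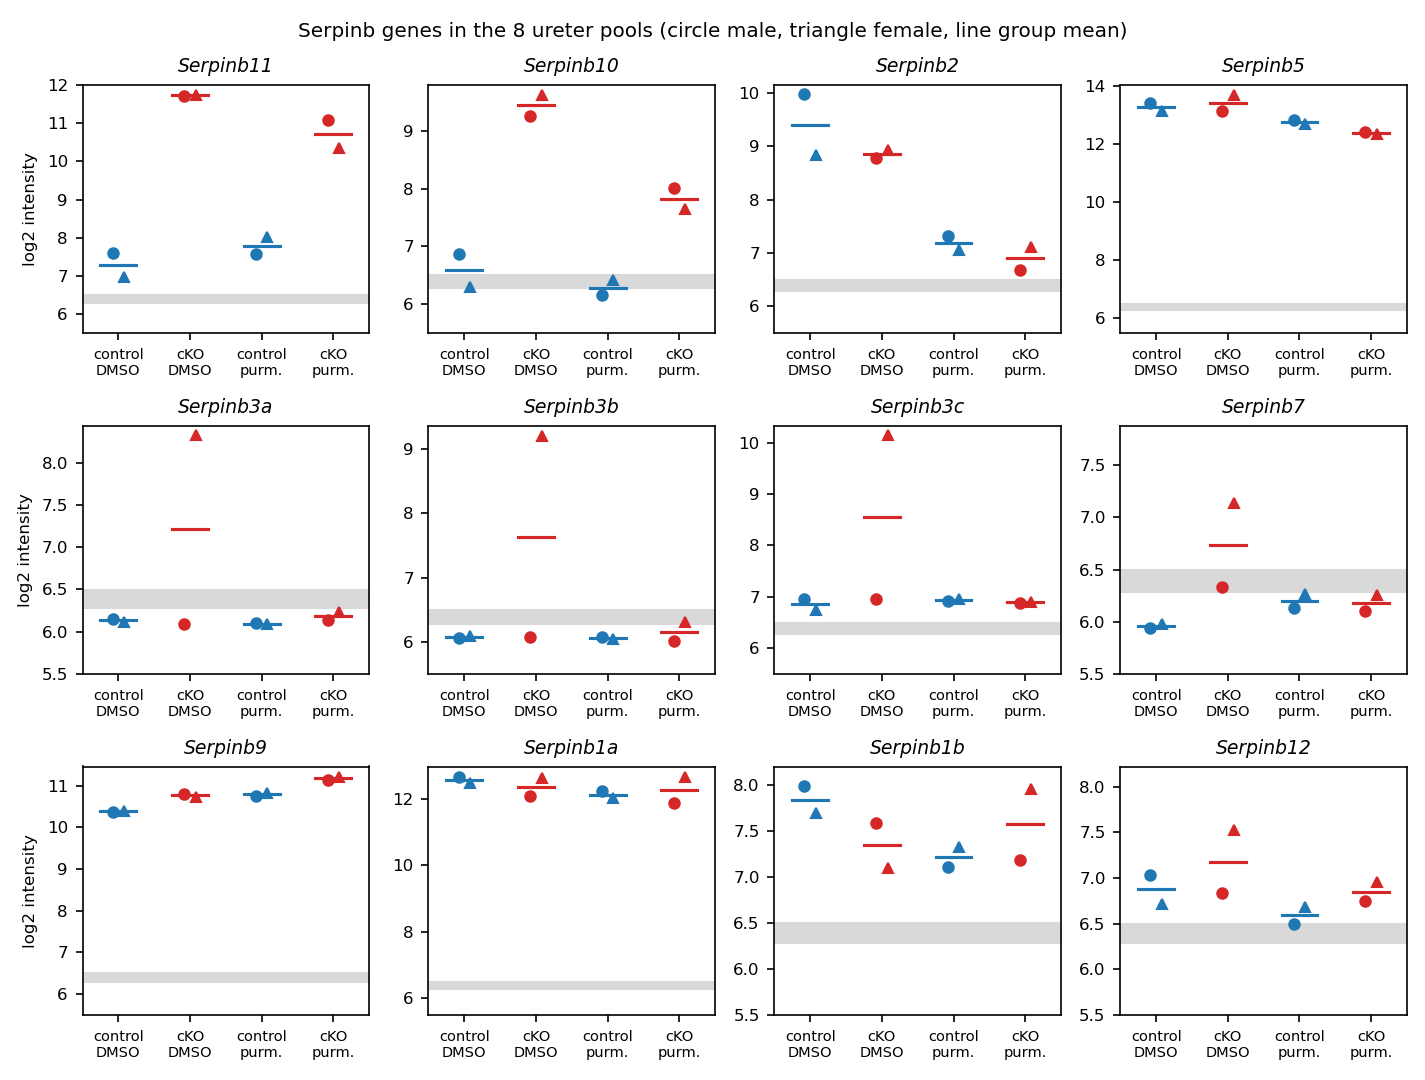
Log2 intensity of 12 *Serpinb* genes (y axis) in the 4 groups (x axis; purm., purmorphamine; cKO, *Pparg-cKO*), with circles for male and triangles for female pools, lines for group means and a grey band for the lowest levels called well above background in the 8 channels. *Serpinb11* lay between 10.36 and 11.74 in the 4 *Pparg-cKO* pools and between 6.96 and 8.02 in the 4 control pools, whereas *Serpinb3a*, *Serpinb3b*, *Serpinb3c* and *Serpinb7* were high in the female *Pparg-cKO* pool with DMSO.

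The genotype difference of both genes was also present with purmorphamine. *Serpinb11* read 7.56 and 8.02 in control pools and 11.08 and 10.36 in *Pparg-cKO* pools, a log2 difference of 2.93 ± 0.31 (SE), or 7.64-fold (adjusted p = 0.0103). *Serpinb10* read 6.16 and 6.41 in control pools, neither well above background, and 8.01 and 7.65 in *Pparg-cKO* pools. Measured against the lowest level called well above background, the *Pparg-cKO* level of *Serpinb10* was at least 2.69-fold higher (adjusted p = 0.0276). Again 2 of 16 tested *Serpinb* genes rose and 0 fell, beside 1.16% and 1.75% of all tested genes (2.91% in either direction). For *Serpinb11* the call was lost in 3 of the 4 fits without 1 array, with adjusted p between 0.0780 and 0.104, but not without the female *Pparg-cKO* array. For *Serpinb10* it was lost in all 4, with adjusted p between 0.0624 and 0.179. With signals scaled to the 75th percentile both calls were lost, at 3.47 for *Serpinb11* (adjusted p = 0.0603) and 2.05 for *Serpinb10* (adjusted p = 0.0553). Without the filter on dim probes that of *Serpinb10* was lost (adjusted p = 0.0510). Among the squamous genes *Lypd2* and *Krt4* were higher in this comparison, by 3.47 and 2.24 (adjusted p = 0.00130 and 0.00458). *Ivl*, the gene of involucrin, was lower (-1.22, adjusted p = 0.0464). Among the urothelial genes *Trp63* was lower (-1.10, adjusted p = 0.0120). The part of these cells in the *Serpinb* differences was not tested.

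Other markers differed between the same pools with DMSO, where 1.92% of all tested genes rose and 1.79% fell. Among 8 urothelial markers, all tested, *Upk1a* and *Upk1b*, which encode uroplakins of superficial cells, were lower in *Pparg-cKO* by -1.34 and -1.31 (adjusted p = 0.0321 and 0.0105), and the list's summed log2 intensity was 18.37 and 18.56 in control and 18.10 and 18.29 in *Pparg-cKO* pools, with *Krt5* the brightest. Among 28 squamous genes (24 tested), *Krt4*, *Krt17*, *Dsc1* and *Lypd2* were called higher and none lower. *Lypd2*, which encodes a Ly6 domain protein, had the largest called difference, 4.68 (adjusted p = 0.000705). Differences over the list ran from -2.83 for *Ly6d* to 5.49 for *Sprr2d*, neither of them called. Of 5 kidney tubule markers, all tested, *Umod* and *Slc12a1* of the loop of Henle were higher, *Umod* by 2.37 (adjusted p = 0.0146). *Umod* was not well above background in the female control pool (6.07), so that the size of its difference is not settled. The list's summed log2 intensity was 9.55 and 8.84 in control and 10.03 and 10.26 in *Pparg-cKO* pools. Of 7 neutrophil markers (6 tested), none passed the threshold. Their summed log2 intensity was 14.20 and 14.39 in control and 14.72 and 15.93 in *Pparg-cKO* pools, *Csf3r* was the brightest, and all 7 were well above background in some pool. The part of these cell types in the *Serpinb10* and *Serpinb11* differences was not tested. *Ly6g*, a neutrophil surface marker gene of the list, read 11.52 and 10.58 in control and 12.16 and 11.80 in *Pparg-cKO* pools with DMSO (0.93, adjusted p = 0.232). With purmorphamine it read 10.53 and 10.07 against 11.84 and 11.44 (1.34, adjusted p = 0.0951), without overlap of the groups in either medium. *Elane* and *Mpo* of the same list had lower means in *Pparg-cKO*, 9.24 against 9.58 and 8.55 against 8.62 with DMSO. With purmorphamine these were 9.01 against 9.41 and 8.08 against 8.32. The list's median was 0.58 with DMSO, from pairs at -0.31 (male) and 0.58 (female), and -0.04 with purmorphamine.

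Purmorphamine lowered *Serpinb2* in both genotypes. *Serpinb2* encodes plasminogen activator inhibitor 2, an inhibitor of urokinase, and is known from macrophages and keratinocytes. In control ureters it read 9.97 (male) and 8.84 (female) with DMSO and 7.32 and 7.05 with purmorphamine, a log2 difference of -2.22 ± 0.23 (SE; adjusted p = 0.0374). In *Pparg-cKO* ureters it read 8.78 and 8.92 with DMSO and 6.69 and 7.12 with purmorphamine, a log2 difference of -1.95 ± 0.23 (SE; adjusted p = 0.0242). Every pool with purmorphamine was lower than every pool with DMSO. The difference between the 2 effects was 0.27 ± 0.32 (SE; adjusted p = 1.00). The call in control ureters was lost without either control array (adjusted p = 0.103 and 0.0927), and that in *Pparg-cKO* without the female *Pparg-cKO* array (-2.09, adjusted p = 0.0558). Both were also lost with signals scaled to the 75th percentile (adjusted p = 0.169 in control and 0.108 in *Pparg-cKO*) and without the filter on dim probes (0.0881 and 0.0643). Its probe lies at chr1:109422046-109422105 (mm9).

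Macrophage markers also had negative differences for purmorphamine in both genotypes. In *Pparg-cKO* ureters 2 were called lower, beside 2.8% of all tested genes, and in control ureters 1, beside 0.919%. Of 9 listed names, *Emr1* is an older symbol of *Adgre1*, and the other 8 were on the array and tested. Each was well above background in some pool, *Fcgr1* in 6 of 8 channels. *Adgre1*, the gene of the macrophage surface protein F4/80, and *C1qa*, a complement gene, fell in *Pparg-cKO* by 1.06 and 0.93 on the log2 scale (adjusted p = 0.0398 and 0.0221), and *C1qa* fell in control ureters by 0.85 (adjusted p = 0.0457). The median over the 8 genes was -0.42 in *Pparg-cKO* and -0.60 in control ureters, against medians of -0.00 and 0.02 over all tested genes. Their summed log2 intensity was 17.92 and 17.59 in control pools with DMSO and 17.45 and 16.97 with purmorphamine, 17.89 and 17.68 in *Pparg-cKO* pools with DMSO and 17.21 and 17.27 with purmorphamine, with *Lyz2* the brightest. All 6 mesenchymal and smooth muscle markers had positive differences at an unadjusted p under 0.05 in both genotypes. Over all 20231 tested genes, 1993 in *Pparg-cKO* and 1977 in control ureters were higher at that limit. The medians of the 6 markers were 0.81 in *Pparg-cKO* and 0.71 in control ureters. Only *Tbx18* was called, in *Pparg-cKO*, beside 1.85% of all tested genes called higher there and 0.282% in control ureters. The summed log2 intensity of the 6 markers went from 18.02 and 17.85 to 18.65 and 18.86 in *Pparg-cKO* pools. In control pools it went from 17.70 and 18.17 to 18.64 and 18.64, with *Acta2* the brightest. The part of these cells in the *Serpinb2* difference, and in the *Serpinb10* and *Serpinb5* differences that follow, was not tested.

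In *Pparg-cKO* ureters, purmorphamine also lowered *Serpinb10* and *Serpinb5*. *Serpinb10* went from 9.27 and 9.63 with DMSO to 8.01 and 7.65, a log2 difference of -1.62 ± 0.26 (SE; adjusted p = 0.0445). *Serpinb5* encodes maspin, an epithelial member that is held not to inhibit proteases. It went from 13.15 and 13.69 to 12.43 and 12.35, a log2 difference of -1.03 ± 0.17 (SE; adjusted p = 0.0480), with its probe at chr1:108778585-108778644 (mm9). In control ureters *Serpinb5* read 13.42 and 13.13 with DMSO and 12.82 and 12.70 with purmorphamine, a difference of -0.51 that missed the threshold (adjusted p = 0.215). *Serpinb11* was lower in both *Pparg-cKO* pools, with differences of -0.63 (male) and -1.38 (female), and missed it as well (-1.01 ± 0.31, SE; adjusted p = 0.157). In all, 3 of 16 tested *Serpinb* genes fell in *Pparg-cKO* and 0 rose, beside 2.8% and 1.85% of all tested genes (4.65% in either direction), and 1 of 16 fell in control ureters and 0 rose, beside 0.919% and 0.282% (1.2% in either direction). Without the female *Pparg-cKO* array, which held the pool that stood apart, 0 *Serpinb* genes passed the threshold in *Pparg-cKO*. *Serpinb10* was then at -1.26 (adjusted p = 0.194) and *Serpinb5* at -0.71 (adjusted p = 0.313). *Serpinb5* also missed the threshold without either control array (adjusted p = 0.0624). With the male and female arrays treated as blocks, both calls were also lost (adjusted p = 0.0697 and 0.0632).

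Squamous and kidney tubule markers were also called in this comparison. Of 24 tested squamous genes, *Krt4*, *Krt6a*, *Krt15*, *Dsc1* and *Tgm1* fell and *Ly6d* rose, beside 2.8% and 1.85% of all tested genes. The list median was -1.51, with -0.69 in the male pair and -2.15 in the female pair. *Dsc1*, which encodes a desmosomal cadherin, had the largest called difference (-2.83, adjusted p = 0.0414). The summed log2 intensity of the squamous list went from 17.60 and 19.20 with DMSO to 17.59 and 17.81. *Krt5*, a keratin gene of basal cells, had differences of -0.59 (male) and -1.85 (female), with a mean that missed the threshold (-1.22, adjusted p = 0.103). Of the kidney tubule markers, *Umod* fell by 2.25 on the log2 scale (adjusted p = 0.0319) and *Slc12a1* fell as well (adjusted p = 0.0161), at a summed log2 intensity of 10.03 and 10.26 with DMSO and 8.88 and 8.89 with purmorphamine. The part of these cells in the *Serpinb10* and *Serpinb5* differences was not tested.

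The study's own rule, an intensity above 100 and a 1.5-fold or larger change of like sign in the male and the female pair, uses no test. By it *Serpinb10* and *Serpinb11* were higher in *Pparg-cKO* with DMSO (2.59% of all genes above that intensity were higher and 2.92% lower), and *Serpinb11* with purmorphamine (3.06% and 3.23%). For purmorphamine, *Serpinb2*, *Serpinb5*, *Serpinb10* and *Serpinb11* were lower in *Pparg-cKO* (3.88% of genes higher and 4.79% lower) and *Serpinb2* in control ureters (2.76% and 3.69%). *Serpinb11* in *Pparg-cKO* is the gene that this rule took and limma did not.

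No tested gene, *Serpinb* or other, differed between the genotypes in its response to purmorphamine after adjustment by limma (0 of 20231, 0%). At an unadjusted p under 0.05 there were 2 *Serpinb* genes and, over all tested genes, 319 with a higher and 350 with a lower response in *Pparg-cKO*. Both *Serpinb* genes were on the lower side, *Serpinb11* with a difference of effects of -1.51 ± 0.44 (SE; unadjusted p = 0.0183 by limma) and *Serpinb10* with -1.32 ± 0.37 (SE; unadjusted p = 0.0158 by limma). For *Serpinb10* only 1 of the 4 control pools was well above background, so that a fall in control ureters could hardly be measured and the size of this difference is not settled. In control ureters the *Serpinb11* pairs had differed by -0.04 (male) and 1.06 (female), so that the control pairs did not share a direction.

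**Figure D2:**
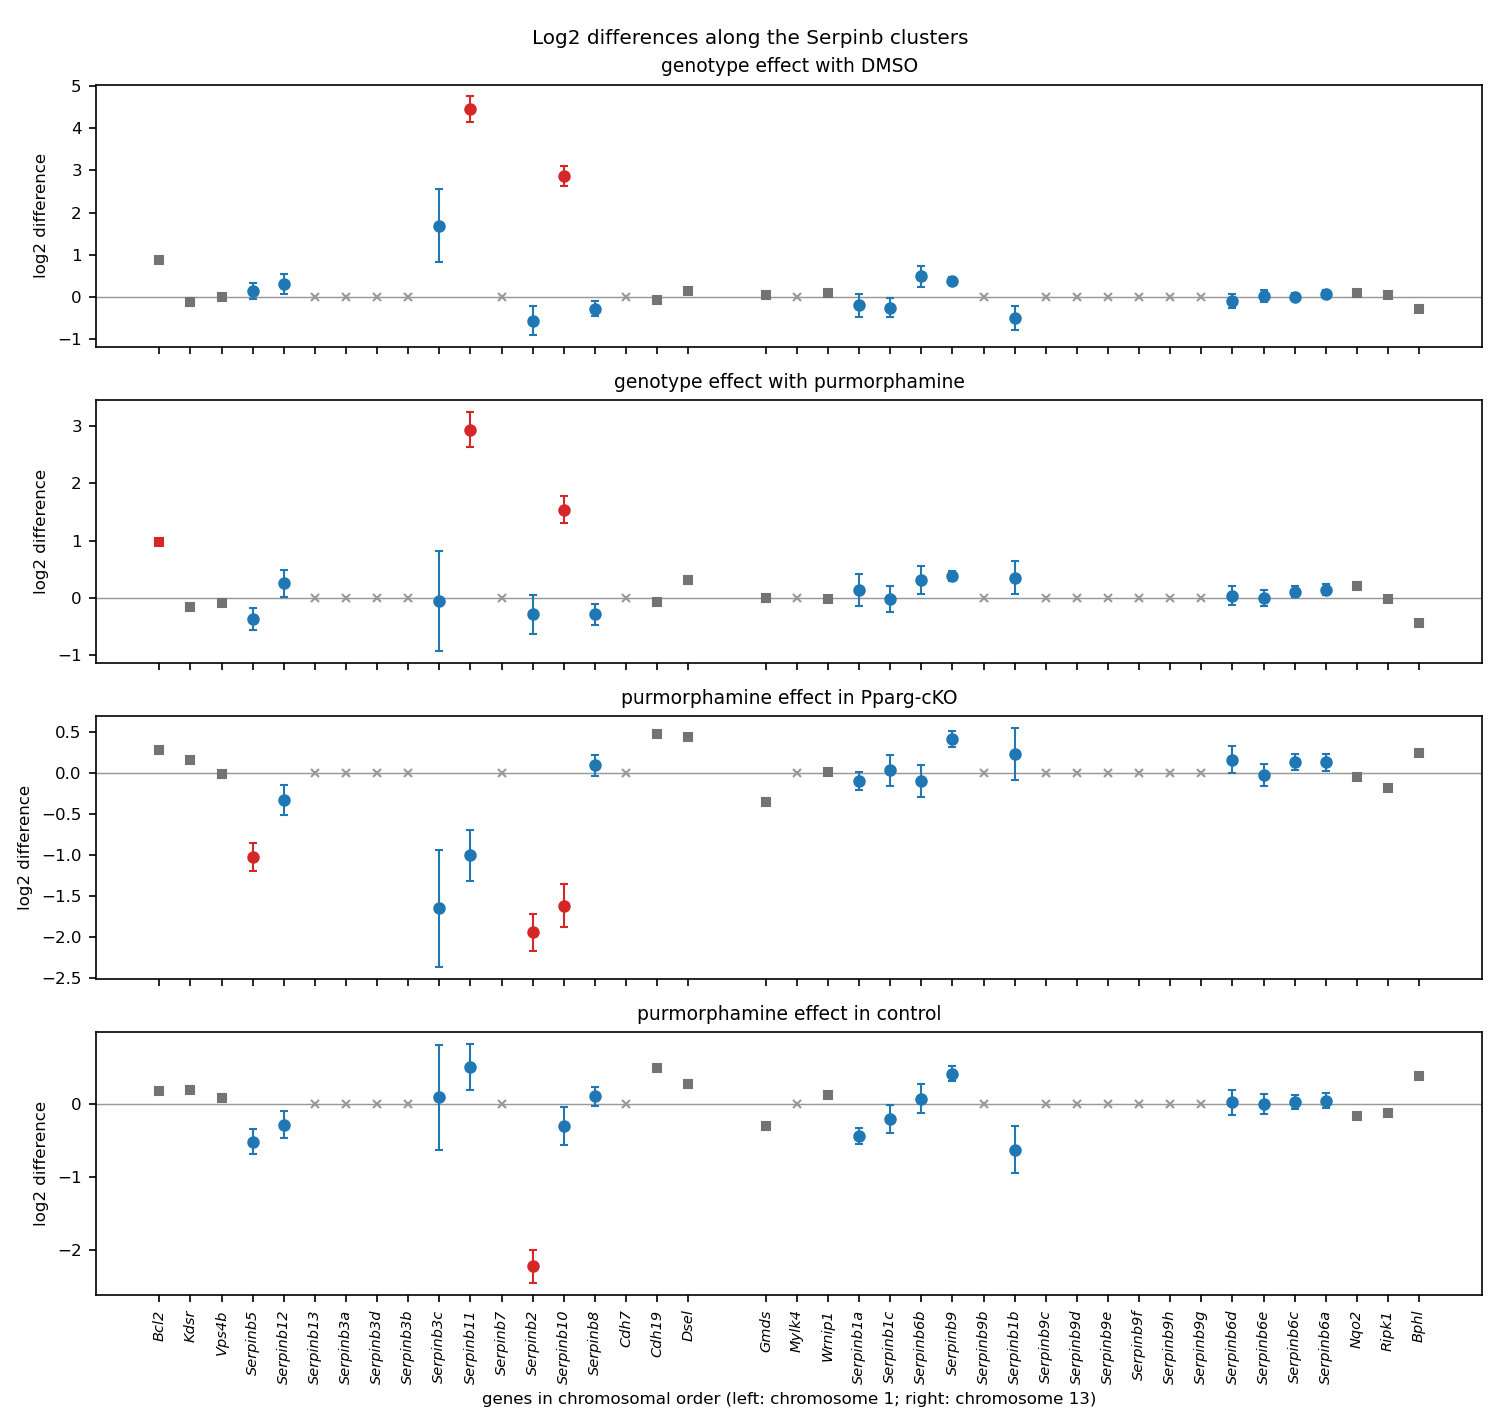
Log2 differences (y axis) of the genes of both *Serpinb* clusters and the 3 neighbours on either side, in chromosomal order (x axis), in 4 comparisons; circles are *Serpinb* genes with bars of 1 SE, squares are neighbours, red marks an adjusted p below 0.05 and grey crosses mark genes not tested. The called *Serpinb* genes lie on chromosome 1 in each comparison, with log2 differences from -2.22 to 4.45, while the chromosome 13 genes lie between -0.62 and 0.49.

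All calls of the main tests fell in the chromosome 1 cluster. Its genes lie in the order *Serpinb5*, *Serpinb12*, *Serpinb13*, *Serpinb3a*, *Serpinb3d*, *Serpinb3b*, *Serpinb3c*, *Serpinb11*, *Serpinb7*, *Serpinb2*, *Serpinb10* and *Serpinb8*. With DMSO, *Serpinb11* and *Serpinb10* rose in *Pparg-cKO*, whereas *Serpinb2*, which lies between *Serpinb7* and *Serpinb10*, had a log2 difference of -0.56 (adjusted p = 0.553), with pairs at -1.19 (male) and 0.08 (female). *Serpinb8*, at the end of the cluster and known as an inhibitor of furin, ranged from -0.29 to 0.11 in the 4 comparisons (lowest adjusted p 0.548), and *Serpinb12*, an inhibitor of trypsin-like proteases, from -0.33 to 0.30 (lowest adjusted p 0.397). The median over the 7 tested genes was 0.30 for genotype with DMSO, -0.05 for genotype with purmorphamine, -1.03 for purmorphamine in *Pparg-cKO* and -0.28 in control ureters. Over all tested genes these medians were 0.00, -0.00, -0.00 and 0.02. The chromosome 1 medians differed by pair. For genotype with DMSO the middle gene was *Serpinb3c* at -0.01 in the male pair and *Serpinb12* at 0.81 in the female pair. For purmorphamine in *Pparg-cKO* it was *Serpinb11*, at -0.63 (male) and -1.38 (female). Both female pairs hold the pool that stood apart. Of the 6 nearest other genes (5 tested), *Bcl2*, which encodes an inhibitor of apoptosis, was higher in *Pparg-cKO* with purmorphamine by 0.97 (adjusted p = 0.0465). With DMSO its genotype difference was 0.88 and missed the threshold (adjusted p = 0.0562). None of the neighbours was called in the other 3 comparisons.

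None of the 9 tested genes on chromosome 13 passed the threshold in any comparison, and at an unadjusted p under 0.05 there was 1 higher gene in each of the 4 and 1 lower gene in control ureters with purmorphamine. Over all 20231 tested genes there were 1622, 1354, 1993 and 1977 higher in the 4 comparisons and 1990 lower in the last, so that these counts of 9 were near the background. Their medians were 0.01, 0.14, 0.13 and 0.02, in the order given for chromosome 1. *Serpinb9*, the inhibitor of granzyme B, was the higher gene each time. It read 10.37 and 10.39 in control pools with DMSO, 10.80 and 10.73 in *Pparg-cKO* pools with DMSO, 10.76 and 10.83 in control pools with purmorphamine, and 11.14 and 11.21 in *Pparg-cKO* pools with purmorphamine. *Serpinb9* passed the threshold in 2 alternatives, for genotype with DMSO without the filter on dim probes (adjusted p = 0.0427) and for purmorphamine in *Pparg-cKO* in the separate-channel fit (adjusted p = 0.0423). The 4 groups did not overlap except for *Pparg-cKO* with DMSO and control with purmorphamine, and the differences were 0.38 for genotype in both media (adjusted p = 0.0727 and 0.0822) and, for purmorphamine, 0.41 in *Pparg-cKO* and 0.42 in control ureters (adjusted p = 0.103 and 0.138).

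*Serpinb1a*, an inhibitor of neutrophil elastase, was the lower gene, with -0.44 in control ureters with purmorphamine (adjusted p = 0.144) and between -0.20 and 0.14 in the other comparisons. Its paralog *Serpinb1b* read 7.98 and 7.69 in control pools with DMSO and 7.10 and 7.33 with purmorphamine (-0.62, adjusted p = 0.379), and in *Pparg-cKO* pools 7.58 and 7.10 with DMSO and 7.19 and 7.95 with purmorphamine (0.23, adjusted p = 0.776). The *Pparg-cKO* groups overlapped and the control groups did not. *Serpinb6a*, which inhibits cathepsin G, and its probe neighbour *Serpinb6c* stayed within 0.14 and 0.13 of 0 in all 4 comparisons, and *Serpinb6d* and *Serpinb6e* within 0.16 and 0.03. *Serpinb6b* had its largest difference for genotype with DMSO (0.49, adjusted p = 0.442) and *Serpinb1c* likewise (-0.25, adjusted p = 0.711).

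The 5 genes listed as inhibitors of lysosomal cathepsins were the *Serpinb3* genes, the squamous cell carcinoma antigen group, and *Serpinb13*. Of these, *Serpinb3a*, *Serpinb3b* and *Serpinb3c* were high in 1 pool, while *Serpinb3d* and *Serpinb13* were at background in all 8 channels. *Serpinb3c*, of a group of serpins that inhibit lysosomal cathepsins, read 10.14 in the female *Pparg-cKO* pool with DMSO and between 6.74 and 6.96 in the other 7. *Serpinb3b* read 9.21 there and at most 6.30 elsewhere, and *Serpinb3a* 8.33 there and at most 6.23 elsewhere. *Serpinb7*, which is known from the cornifying epidermis, read 7.13 there and at most 6.34 elsewhere. Outside this pool *Serpinb3a*, *Serpinb3b* and *Serpinb7* were not well above background. *Serpinb3c* had a log2 difference of 1.69 ± 0.87 (SE) for genotype with DMSO (adjusted p = 0.453), from pairs of -0.01 (male) and 3.39 (female), and of -1.65 for purmorphamine in *Pparg-cKO* (adjusted p = 0.278), from pairs of -0.07 and -3.24. Without the female *Pparg-cKO* array the 2 differences were 0.10 and -0.07. Without the male *Pparg-cKO* array the 2 differences were 3.29 (adjusted p = 0.00173) and -3.24 (adjusted p = 0.00289), values that rest on 1 *Pparg-cKO* pool of each treatment and assume that it varies like the other groups. The *Serpinb3a* and *Serpinb3c* probes matched at 43 of 48 aligned bases, so that their readings may not be independent.

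**Figure D3:**
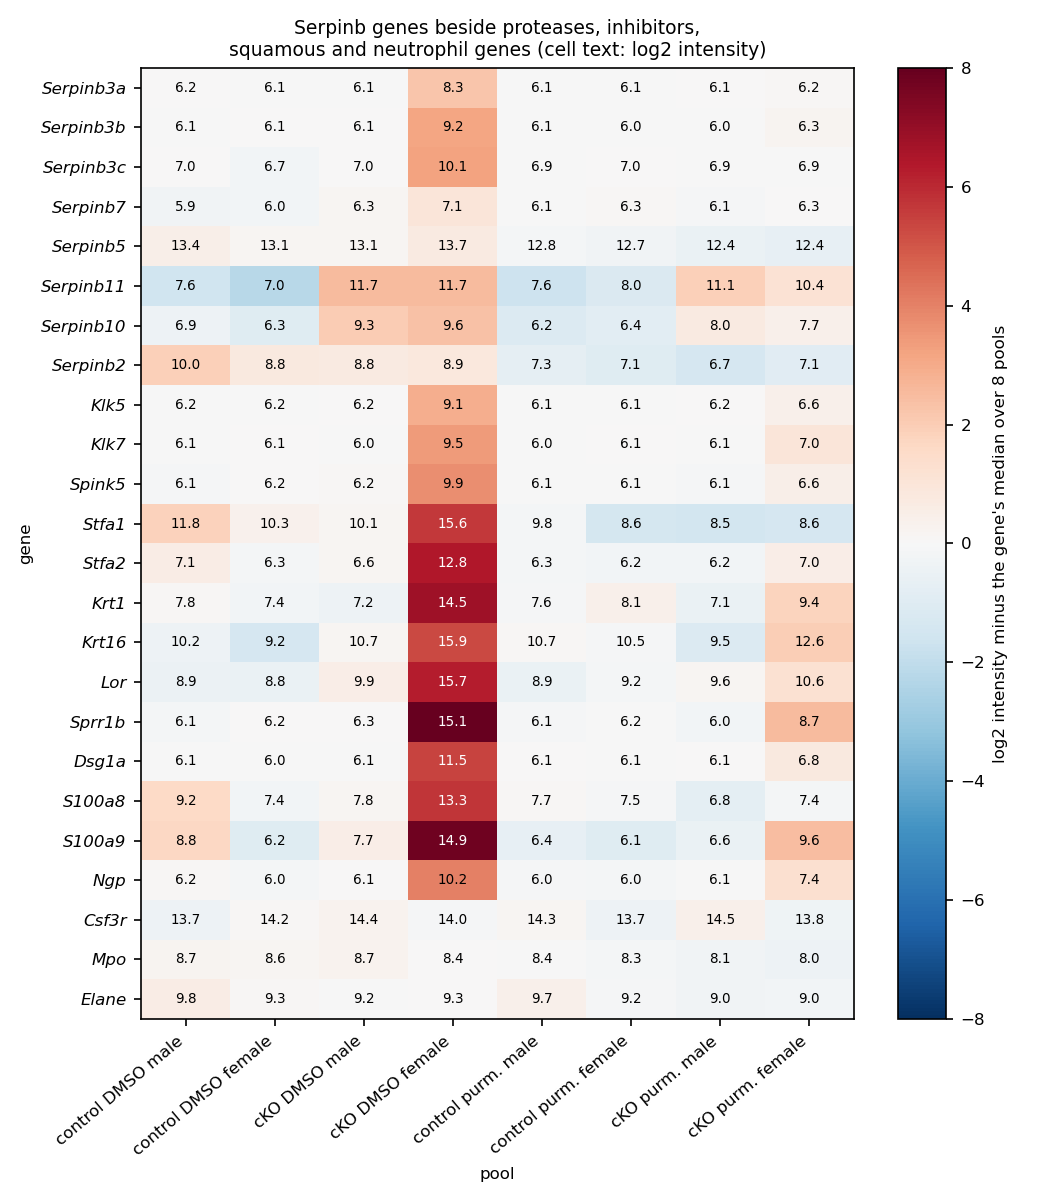
Log2 intensity in 8 pools (columns; numbers in the cells) of 8 *Serpinb* genes and of protease, inhibitor, squamous and neutrophil genes (rows), coloured by the difference from each gene's median over the pools (colour bar, log2). *Serpinb3a*, *Serpinb3b*, *Serpinb3c* and *Serpinb7* are highest in the female *Pparg-cKO* pool with DMSO together with *Klk5*, *Klk7*, *Spink5*, *Krt1*, *Lor*, *Sprr1b*, *S100a8* and *S100a9*, whereas *Serpinb11* reads 11.72 and *Serpinb10* 9.27 in the male pool of that group, against 11.74 and 9.63 in the female pool.

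In the same pool, 2 of 21 genes of the target protease list, which also holds the urokinase receptor gene *Plaur*, were more than 4-fold above each other pool. So were 6 of 20 other epithelial protease inhibitors and 3 of 19 *Serpinb* genes. These counts take in genes well above background in any pool. Genes measured in this pool alone had to be highest there, *Klk5*, *Serpinb3a* and *Serpinb3b* among them, so these counts describe the pool; among tested genes they were 1 of 16 *Serpinb* genes and 0.227% of all. *Klk5* and *Klk7*, kallikreins that act in shedding of the cornified layer, read 9.10 and 9.52 there and at most 6.56 and 7.04 elsewhere. *Spink5*, which encodes the kallikrein inhibitor LEKTI, read 9.88 there and at most 6.64 elsewhere, and *Stfa2*, a stefin gene of the cysteine protease inhibitors, 12.84 and at most 7.05. The rest of the inhibitors more than 4-fold above each other pool were *Stfa1*, *Stfa3*, *BC100530* and *BC117090*. Probes of the stefin paralogs may share signal. *Krt1*, a keratin of cornifying epithelia, read 14.46 and at most 9.44. The female *Pparg-cKO* pool with purmorphamine, from the same sex and array, was the next highest for *Klk5*, *Klk7*, *Spink5*, *Krt1*, *Lor*, *Sprr1b*, *Serpinb3a* and *Serpinb3b*. For other genes it was not. The next highest was the male control pool with DMSO for *Stfa1*, *Stfa2*, *Stfa3* and *S100a8*. It was the female control pool with purmorphamine for *Serpinb3c* and the male *Pparg-cKO* pool with DMSO for *Serpinb7*. The summed log2 intensity of the 28 squamous genes was 19.20 in the female *Pparg-cKO* pool with DMSO and between 17.59 and 17.96 in the other 7, with *Sprr1a* the brightest. The part of squamous cells in the levels of the *Serpinb3* genes and *Serpinb7* was not tested.

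The list of proteases that clade B serpins are known to inhibit gave no calls. It also holds *Plaur*, the gene of the urokinase receptor, which is not a protease. Of 23 listed genes, all on the array, 19 were tested and 0 passed the threshold by limma in any of the 4 comparisons. At an unadjusted p under 0.05 there were 1, 1, 1 and 0 higher and 0, 0, 6 and 9 lower genes for genotype with DMSO, for genotype with purmorphamine, and for purmorphamine in mutant and in control ureters. Over all 20231 tested genes these counts were 1622, 1354, 1993 and 1977 higher and 1571, 1801, 2503 and 1990 lower. The list's medians were -0.05, 0.04, -0.23 and -0.37. The largest differences were those of *Gzmb*, the gene of granzyme B, with -1.12 in *Pparg-cKO* and -1.01 in control ureters for purmorphamine (adjusted p = 0.131 and 0.194), and of *Prtn3*, which encodes the neutrophil protease proteinase 3, with -0.93 and -0.76 (adjusted p = 0.0723 and 0.143). *Plau*, the gene of urokinase and so of the target of *Serpinb2*, read 11.25 and 10.50 in control pools with DMSO and 10.38 and 10.59 with purmorphamine, and 10.44 and 10.87 in *Pparg-cKO* pools with DMSO and 10.16 and 9.86 with purmorphamine. The DMSO and purmorphamine pools overlapped in control ureters only.

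Serpins of other clades, most of which are secreted, were called mainly for purmorphamine. Of 35 on the array 25 were tested. Genotype with DMSO gave 1 lower gene, *Serpina3j* (-0.90, adjusted p = 0.0319), and genotype with purmorphamine none, beside the 3.72% and 2.91% of all tested genes called. Purmorphamine gave 6 lower and 2 higher genes in *Pparg-cKO* and 5 lower and 0 higher in control ureters, beside the 4.65% and 1.2% of all tested genes called. Whether the families differed was not tested. The lower ones were *Serpina3* genes, paralogs that encode antichymotrypsin-like inhibitors and whose probes may share signal. *Serpina3i* fell by 2.21 in *Pparg-cKO* and by 2.48 in control ureters on the log2 scale (adjusted p = 0.0325 and 0.0459), and *Serpina3c* by 2.19 and 1.93 (adjusted p = 0.0131 and 0.0213). *Serpinf1*, which encodes pigment epithelium-derived factor, and *Serpini1*, which encodes neuroserpin, rose in *Pparg-cKO* by 0.75 and 0.89 (adjusted p = 0.0340 and 0.0461). The list's median was -0.57 in *Pparg-cKO* and -0.59 in control ureters.

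**Figure D4:**
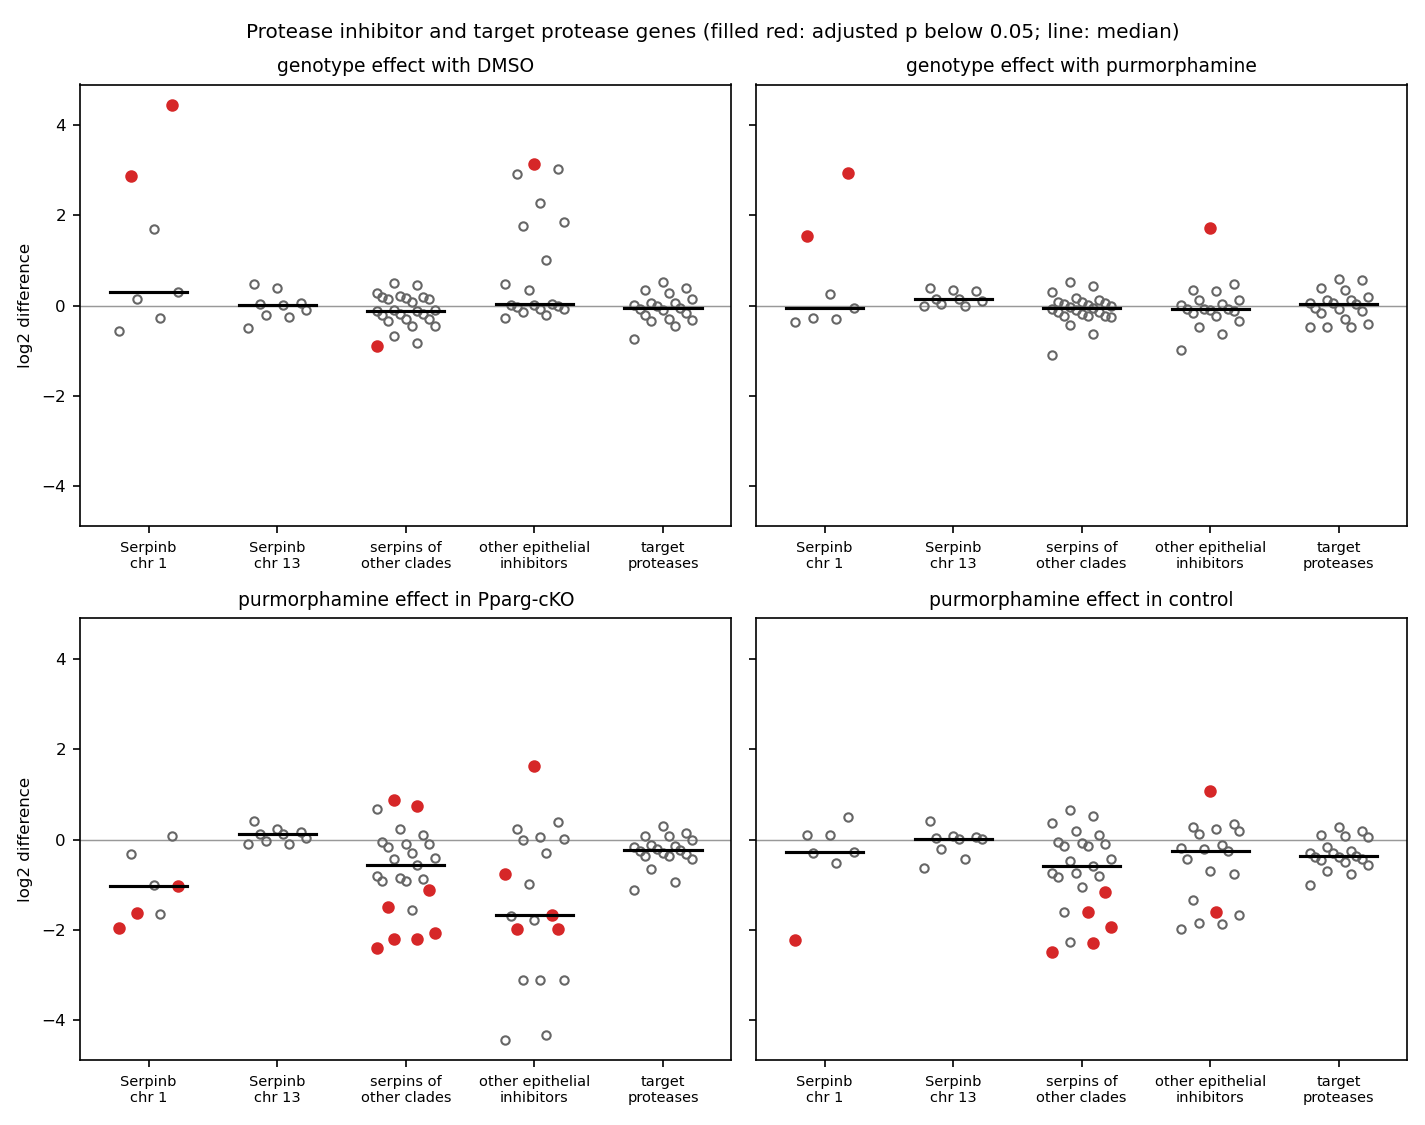
Log2 differences (y axis) of single genes in 5 groups of protease inhibitor and protease genes (x axis) in 4 comparisons; filled red points have an adjusted p below 0.05, open points do not, and lines are medians. *Serpinb11* at 4.45 and *Serpinb10* at 2.86 are the highest points of the chromosome 1 group for genotype with DMSO. The 19 tested genes of the target protease list, which include the urokinase receptor gene *Plaur*, hold no filled point.

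Among other epithelial protease inhibitors, *Spink8*, a Kazal-type inhibitor gene, was the only one called for genotype. It read 7.58 and 7.08 in control pools with DMSO and 10.76 and 10.14 in *Pparg-cKO* pools, a log2 difference of 3.12 (adjusted p = 0.00582), and with purmorphamine 7.18 and 6.96 against 9.17 and 8.40, a difference of 1.72 (adjusted p = 0.0428). In *Pparg-cKO* it fell with purmorphamine by 1.66 (adjusted p = 0.0143). Of 24 listed genes, 23 were on the array and 19 tested, and purmorphamine gave 4 lower and 1 higher in *Pparg-cKO* and 1 lower and 1 higher in control ureters, beside 2.8% and 1.85%, and 0.919% and 0.282%, of all tested genes. *Timp3*, an inhibitor of metalloproteinases, rose in both, by 1.64 and 1.08 (adjusted p = 0.0142 and 0.0374), and *Wfdc12*, a whey acidic protein domain inhibitor gene, fell by 1.97 and 1.60 (adjusted p = 0.0161 and 0.0382).

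The promoters of both clusters were searched for short motifs. RefSeq promoter sequences (GRCm38.p6; 250 bases before to 50 after the start of the gene) were found for 11 of the 12 genes on chromosome 1 and for 14 of the 15 on chromosome 13, and 13 motifs, chosen after the levels were known, were searched on both strands. TGAGTCA, the consensus of AP-1 factors, occurred in *Serpinb7* and *Serpinb8* and in 5.2% of 32851 promoters, and in none of the called genes. TGAATCA, which differs from it in the middle base, occurred in *Serpinb2*, *Serpinb5*, *Serpinb10*, *Serpinb11* and *Serpinb12* and in 2.81% of all promoters, so that it was in all 4 called genes and in 1 that was not called. On the other strand it reads TGATTCA. The pattern TGANTCA, which holds both motifs, was in these 7 of the 11 chromosome 1 genes, in 0 of the 14 on chromosome 13 and in 7.81% of all promoters. The *Serpinb* counts are of genes, some with more than 1 promoter, while the shares are of promoters. By promoter, TGANTCA was in 8 and TGAATCA in 6 of 31 *Serpinb* promoters. Windows of 41 bases around TGAATCA or TGATTCA are printed for the 4 called genes, with the match in capitals, all on the + strand.
Serpinb5, chr1:106861018-106861058: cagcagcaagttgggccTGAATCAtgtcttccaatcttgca
Serpinb11, chr1:107362116-107362156: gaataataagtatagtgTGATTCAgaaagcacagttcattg
Serpinb11, chr1:107362221-107362261: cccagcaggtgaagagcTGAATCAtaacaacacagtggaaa
Serpinb2, chr1:107511312-107511352: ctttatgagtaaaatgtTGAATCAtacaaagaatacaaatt
Serpinb10, chr1:107528932-107528972: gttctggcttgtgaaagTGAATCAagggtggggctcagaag
The matches began 140 bases before the start of *Serpinb5*, 181 and 76 before *Serpinb11*, 94 before *Serpinb2* and 54 before *Serpinb10*. A match describes the sequence and is not a site shown to be bound.

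Of the other motifs, TATAAA occurred in 7 genes on chromosome 1 and 2 on chromosome 13. By promoter it was in 11 of 31 *Serpinb* promoters, against 13.6% of all promoters. The PPAR element (2 copies of AGGTCA in direct repeat with 1 base between) occurred in 0.0396% of all promoters, and the GLI core TGGGTGGTC, which contains the shorter GGGTGGTC, in 0.253% (the shorter in 0.807%). Neither these nor a pair of CATG with 5 bases between, a p53 family pattern found in 0.557%, were in a *Serpinb* window. A single AGGTCA, which overlaps the PPAR element, was in 12 *Serpinb* genes and 13 of 31 *Serpinb* promoters (16.3% of all promoters). By gene, TTGCNNAA was in 3 (10.8% of all promoters), CCGGAAG in 2 (8.86%), GGGANTTCC in 1 (1.68%) and GGGCGG in 5 (35.7%).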

How the data were processed

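RNA of sex-sorted ureter pools was hybridized by the authors to Agilent 2-colour mouse oligonucleotide arrays annotated on mm9. Per the file headers, the deposited intensity values came from Feature Extraction 12.2.0.7, while the labels name version 10.7.3.1. The deposited log10 ratios of red over green, made by the authors' scanner software, were used to check the dye orientation alone. Groups, sexes and dyes were taken from the labels. Mean intensities were background-corrected (limma 3.58.1 in R 4.3.3, normexp with offset 50), normalized within arrays (loess) and between them (Aquantile), and the 4 spots of a probe were averaged. Genotypes were compared with limma's separate-channel fit (intraspot correlation 0.0569), purmorphamine effects and their difference with log2 ratios within arrays, always over all 4 arrays. Benjamini-Hochberg adjustment ran over the 27066 probes that reached the background criterion in each pool of 1 or more groups. The brightest tested probe stood for each of 20231 genes, and an adjusted p below 0.05 was the threshold. Array number limits the precision. The authors' deposited value table held their own signed fold changes and was not used; control spots were left out. Promoters were read from RefSeq (GRCm38.p6) with Python 3.11.15.

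The *Serpinb* members and all other gene lists were chosen with earlier results of these data known. Named in full were the *Serpinb* genes past the threshold in any comparison and the 5 with the largest difference in each of 4 comparisons among those above background in both pools of 1 of the groups compared, plus *Pparg*, *Shh*, *Ptch1*, *Hhip* and *Gli1*, and up to 3 called members of each other list (2 where none was called); further names were chosen after their values were seen. Alternatives were another scaling of the processed signals, no background subtraction, offset 16, quantile normalization, 2 other filters, the mean of a gene's probes, the replicate block, each array left out, a separate-channel fit and the authors' rule (intensity above 100 and at least 1.5-fold in both pairs).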

Additional observations from a re-analysis of the deposited data

How the results depend on the processing

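Every called *Serpinb* gene kept its direction under every alternative that could give a value, and no called value reversed. Of 499 comparisons of a named *Serpinb* gene with an alternative, 463 stayed on the same side of the threshold, 31 lost the call and 5 gained it. Most of the 499 were of values not called in the main test, which had no call to lose. For genotype with DMSO the call was kept in 11 of 12 alternatives for *Serpinb11* and 10 of 11 for *Serpinb10*. With purmorphamine these were 8 of 12 and 5 of 11. For purmorphamine in *Pparg-cKO* they were 10 of 13 for *Serpinb2*, 7 of 12 for *Serpinb10* and 6 of 13 for *Serpinb5*. In control ureters *Serpinb2* kept it in 9 of 13. Counts of called genes over the whole array were 752 and 589 for genotype with DMSO and with purmorphamine, 941 for purmorphamine in *Pparg-cKO*, 243 for purmorphamine in controls and 0 for the difference of effects. With processed signals scaled to the 75th percentile the first 4 were 431, 214, 0 and 0, without a filter on dim probes the purmorphamine counts were 286 and 0, and by the authors' rule the genotype count with purmorphamine was 962 and the purmorphamine count in control ureters 988. For *Serpinb* genes (2, 2, 3, 1 and 0 calls), scaling to the 75th percentile gave 0 for genotype with purmorphamine and for both purmorphamine effects. No filter gave 1 for genotype with purmorphamine and 0 for both purmorphamine effects, probes well above background in all 8 channels gave 1 for each genotype effect, offset 16 gave 1 for purmorphamine in *Pparg-cKO*, and the authors' rule gave 1 for genotype with purmorphamine. Without 1 array at a time, whole-array counts ranged from 32 to 416, 17 to 314, 159 to 1046, 0 to 586 and 0 to 39 in the order above, and *Serpinb* counts from 0 to 3, 0 to 1, 0 to 4, 0 to 1 and 0 to 1; the lone pool left was then assumed to vary like the other groups. The only *Serpinb* call for the difference of effects was *Serpinb3c* without the male *Pparg-cKO* array (-3.33, adjusted p = 0.0146). The cause of these changes was not tested.

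Replicate numbers mark sex and dye orientation, and whether same-numbered pools shared animals is not given in the sources used here. Deviations of same-numbered pools from their group means correlated at -0.17 (DMSO, between genotypes), 0.48 (purmorphamine, between genotypes), 0.02 (control) and 0.35 (*Pparg-cKO*). With the replicate block, *Serpinb* calls for purmorphamine in *Pparg-cKO* fell from 3 to 1, *Serpinb2*; no other *Serpinb* count changed. Medians of all tested genes moved by less than 0.03 (log2) between scalings.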

Other observations

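With purmorphamine in *Pparg-cKO* ureters, 3 of 8 urothelial and 2 of 4 endothelial markers rose, beside 1.85% of all tested genes. The uroplakin genes *Upk1a*, *Upk1b* and *Upk2* rose by 2.14, 1.72 and 0.84 on the log2 scale (limma adjusted p = 0.0143, 0.0142 and 0.0352). In control ureters the same 3 genes differed by 1.20, 0.89 and 0.67 and missed the threshold (adjusted p = 0.0541, 0.0510 and 0.0841). The median over the 8 markers was 0.48 in *Pparg-cKO* and 0.47 in control ureters. Basal cell genes of the list had the opposite sign in *Pparg-cKO*, with -1.22 for *Krt5* (adjusted p = 0.103) and -0.60 for *Trp63*, a transcription factor gene (adjusted p = 0.0555). With purmorphamine, *Trp63* also differed between the genotypes, with a lower level in *Pparg-cKO* (-1.10, adjusted p = 0.0120). Of 4 endothelial markers, *Tek*, an angiopoietin receptor gene, rose by 2.00 in *Pparg-cKO* and 1.26 in control ureters (adjusted p = 0.0143 and 0.0439), and *Cdh5*, the gene of VE-cadherin, by 1.25 in *Pparg-cKO* (adjusted p = 0.0459). *Kdr*, a VEGF receptor gene, was higher in *Pparg-cKO* with DMSO by 0.88 (adjusted p = 0.0382). Of 6 mesenchymal and smooth muscle markers, all had positive differences for purmorphamine, from 0.67 to 1.40 in *Pparg-cKO* and from 0.42 to 0.78 in control ureters, and *Tbx18* alone was called, with 0.67 in *Pparg-cKO* (adjusted p = 0.0461). Of 7 lymphocyte and natural killer cell markers (5 tested) *Cd3e* alone was called, with -1.01 for genotype with purmorphamine (adjusted p = 0.0196). In that comparison 1.75% of all tested genes were called lower and 1.16% higher.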
